A study of Mus musculus with 12 samples.

Results

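The 39 genes described here encode subunits of the voltage-gated sodium and calcium channels of the mouse. They were taken by symbol from the count table: every gene named Scn with a number and a or b, Cacna1 with a letter from a to i, Cacna2d1 to Cacna2d4, Cacnb1 to Cacnb4, or Cacng1 to Cacng8. This rule found 39 of the 25124 genes listed, and all 39 passed the filter on low counts, so that all are among the 17612 genes tested. No measured value was used to choose them.

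RNA of mouse brain was sequenced on day 28 of an ischemic stroke model, in which the middle cerebral artery is occluded (MCAo), to ask what DKK1, a secreted inhibitor of Wnt signalling, does once it is induced after stroke. The DKK1 mice carried the Hprttm1(tetO-Dkk1)Spdl allele, a Dkk1 gene under a doxycycline-dependent promoter placed at Hprt. They also carried Gt(ROSA)26Sortm1.1(rtTA,EGFP)Nagy, which gives the doxycycline-dependent activator and EGFP from the ROSA26 locus, and the Wnt reporter Tg(TCF/Lef1-lacZ)34Efu/J. The WT mice were C57BL6/J and carried none of these alleles. Mice of both genotypes had MCAo and received doxycycline at 200 mg/kg, with induction on day 3 after MCAo. From each genotype came ipsilateral tissue, which holds the lesion, and contralateral tissue, which is intact, and there were 3 libraries in each of the 4 groups: DKK1 ipsilateral, DKK1 contralateral, WT ipsilateral and WT contralateral. Age, sex and the number of animals are not given in the labels, and transgenic mice without doxycycline or mice without MCAo were not analysed here. The p-values therefore rest on how far libraries of a group lie apart, which may be partly technical.

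Total counts ran from 21209920 to 26911840 per library, and the channel genes took between 0.416% and 0.636% of them. Dkk1 had 4 to 44 counts in the 6 DKK1 libraries and 0 in the 6 WT libraries, and Hprt, at whose locus the transgene sits, had 293 to 427 counts in DKK1 libraries and 1806 to 2002 in WT libraries. On the first principal component of all genes (73.8% of the variance), the ipsilateral libraries lay at 62.8, 79.2 and 83.8 in DKK1 mice and at 70.9, 29.2 and 37.1 in WT mice, so that WT ipsilateral 1 lay among the DKK1 lesions. All contralateral libraries lay between -72.6 and -41.2, with WT contralateral 1 nearest to the lesioned ones at -41.2. Neuron markers (Rbfox3, Snap25, Syt1 and 7 others) were present in every library at a summed level of 3739 to 5793 CPM. CPM throughout are counts scaled to a common library total, with library sizes adjusted by TMM, edgeR's trimmed-mean normalization.

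As background, a sodium channel consists of a pore-forming alpha subunit with auxiliary beta subunits. In brain neurons the alpha subunits gather at the axon initial segment and the nodes of Ranvier, where action potentials start and are renewed. A high-voltage-activated calcium channel has an alpha1 pore joined by an alpha2delta and an intracellular beta subunit; it carries the calcium that triggers transmitter release (P/Q- and N-type) or signals to the nucleus (L-type), while T-type channels open near rest and shape burst firing. Most of the gamma genes encode TARPs, which in brain escort AMPA-type glutamate receptors to synapses, while Cacng1 encodes the gamma subunit of the skeletal muscle calcium channel and Cacng6 a close relative of it. Several alpha subunits are known mainly from other tissues: Scn4a from skeletal muscle, and Scn10a and Scn11a from pain-sensing neurons, while Scn7a encodes the sodium sensor Nax of glia and Schwann cells.

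The members lie on many chromosomes, with several in tandem (mm10). Scn3a, Scn2a, Scn1a, Scn9a and Scn7a follow each other on chromosome 2, Scn10a and Scn11a on chromosome 9, Scn2b and Scn4b elsewhere on chromosome 9, Cacng7, Cacng8 and Cacng6 on chromosome 7, and Cacng5, Cacng4 and Cacng1 on chromosome 11. In the DKK1 lesion Scn3a, Scn2a and Scn1a of the chromosome 2 cluster were lower, as given below, while Scn7a of the same cluster was higher. Part of the exons of Cacnb4 (15.99%), and under 5% per partner of those of Cacna1a, Cacna1d, Cacna1h, Cacna2d2, Cacnb2 (3 partners) and Scn9a, overlap a gene on the opposite strand. Most count columns carry the word flip in their names, as given below, but how strand was used in counting is not stated in the sources used here. Reads of such partners therefore cannot be told apart from theirs.

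Of the 39 genes, 29 had a promoter window in the RefSeq table of build GRCm38.p6 (40 windows, each from 250 bases before to 50 after a start). The 250 bases upstream are shown for 4 sodium channel genes, the 2 that were higher in the DKK1 lesion and 2 well-expressed members that were lower there, because these directions divide the family. They are printed 5′ to 3′ on the strand of the gene with every CG dinucleotide in capitals. Scn4a is at chr11:106349391-106349640 (minus strand), Scn7a at chr2:66784911-66785160 (minus strand), Scn4b at chr9:45138374-45138623 (plus strand) and Scn1a at chr2:66440838-66441087 (minus strand).
Scn4a: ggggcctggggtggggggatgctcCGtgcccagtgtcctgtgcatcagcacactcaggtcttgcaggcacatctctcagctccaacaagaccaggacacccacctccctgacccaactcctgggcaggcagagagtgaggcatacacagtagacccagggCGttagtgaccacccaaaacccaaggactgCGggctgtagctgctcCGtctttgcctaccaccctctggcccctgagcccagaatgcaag
Scn7a: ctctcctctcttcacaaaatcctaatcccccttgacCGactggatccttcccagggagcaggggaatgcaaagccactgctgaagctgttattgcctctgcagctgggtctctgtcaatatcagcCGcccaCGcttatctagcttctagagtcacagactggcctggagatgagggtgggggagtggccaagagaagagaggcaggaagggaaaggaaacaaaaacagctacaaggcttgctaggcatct
Scn4b: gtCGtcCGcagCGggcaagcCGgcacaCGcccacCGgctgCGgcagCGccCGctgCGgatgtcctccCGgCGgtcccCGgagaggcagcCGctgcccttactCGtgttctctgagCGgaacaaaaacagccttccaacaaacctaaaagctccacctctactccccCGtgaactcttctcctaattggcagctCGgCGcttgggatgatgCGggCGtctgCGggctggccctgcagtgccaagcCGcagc
Scn1a: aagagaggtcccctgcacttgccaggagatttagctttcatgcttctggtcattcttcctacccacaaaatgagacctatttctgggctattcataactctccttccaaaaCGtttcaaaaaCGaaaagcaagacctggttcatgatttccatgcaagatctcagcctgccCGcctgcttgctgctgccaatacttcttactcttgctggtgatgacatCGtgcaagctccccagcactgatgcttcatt
The window upstream of Scn4b holds 23 CG dinucleotides, against 4 for Scn1a, 4 for Scn4a and 3 for Scn7a, so that CG content was low upstream of both genes that were higher and of Scn1a, which was lower. Both core motifs of the RE1 element, which the repressor REST binds at neuronal genes, were searched on both strands in all windows. CAGCACC stood in 7.14% of the 32851 windows of the table and in 0 of the 40 windows of channel genes. GGACAGC stood in 6.56% of all windows and in 2 of the 40, those of Cacnb1 and Cacng6. These are matches of letters in a short window only.

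Levels between genes were compared per kilobase of the listed transcript (CPM per kb). In WT contralateral tissue auxiliary subunits were among the highest: Scn4b stood at 108 ± 17.8 and Scn2b at 87.7 ± 3.07 CPM per kb, followed by Cacnb3 at 71.5 ± 1.498 and the TARP gene Cacng7 at 67.5 ± 1.24 (mean ± SD, n = 3). Between neighbours in this order, 22 pairs did not differ beyond their spread (mean ± SD overlapped), Scn4b and Scn2b among them, and 16 did. The highest alpha subunit gene was Scn8a, which encodes Nav1.6 of the axon initial segment and nodes, at 45.7 ± 1.79 CPM per kb, and the highest calcium pore gene was Cacna1a, which encodes the P/Q-type channel, at 32.7 ± 3.04. At the other end, Cacna1f, known from retina, stood at 0.134 ± 0.0277, Scn11a at 0.0718 ± 0.0307 and Scn4a at 0.0105 ± 0.00761 CPM per kb. Cacna1f had 35 or fewer counts in every library and Scn11a 16 or fewer.

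Summed per kb, Scn8a, Scn2a and Scn1a made up most of the alpha subunit RNA. Scn8a took 37.8 ± 2.29% in DKK1 ipsilateral, 35.8 ± 1.03% in DKK1 contralateral, 35.3 ± 0.878% in WT ipsilateral and 35.6 ± 0.523% in WT contralateral tissue. Scn2a, which encodes Nav1.2, took 32.1 ± 1.25% in DKK1 ipsilateral, 32.7 ± 0.385% in DKK1 contralateral, 32.3 ± 0.271% in WT ipsilateral and 32.1 ± 0.217% in WT contralateral tissue. Scn1a, which encodes Nav1.1 of inhibitory interneurons, took 18.7 ± 0.135% in DKK1 ipsilateral, 20.5 ± 0.312% in DKK1 contralateral, 19.4 ± 1.66% in WT ipsilateral and 21.6 ± 0.606% in WT contralateral tissue. Scn8a and Scn2a therefore kept nearly the same shares in all groups, while the mean Scn1a share was smaller in the lesioned hemisphere, with mean ± SD overlapping between the hemispheres of WT mice. Among beta subunits Scn4b took 15.7 ± 2.32% in DKK1 ipsilateral, 23.3 ± 2.32% in DKK1 contralateral, 16.7 ± 2.65% in WT ipsilateral and 25.6 ± 2.46% in WT contralateral tissue, with no overlap of mean ± SD between the hemispheres of either genotype. Among L-type pores Cacna1c took 49.2 ± 1.79% in DKK1 ipsilateral, 56.0 ± 1.07% in DKK1 contralateral, 49.5 ± 1.76% in WT ipsilateral and 54.8 ± 1.15% in WT contralateral tissue, and Cacna1d took most of the rest.

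**Figure D1:**
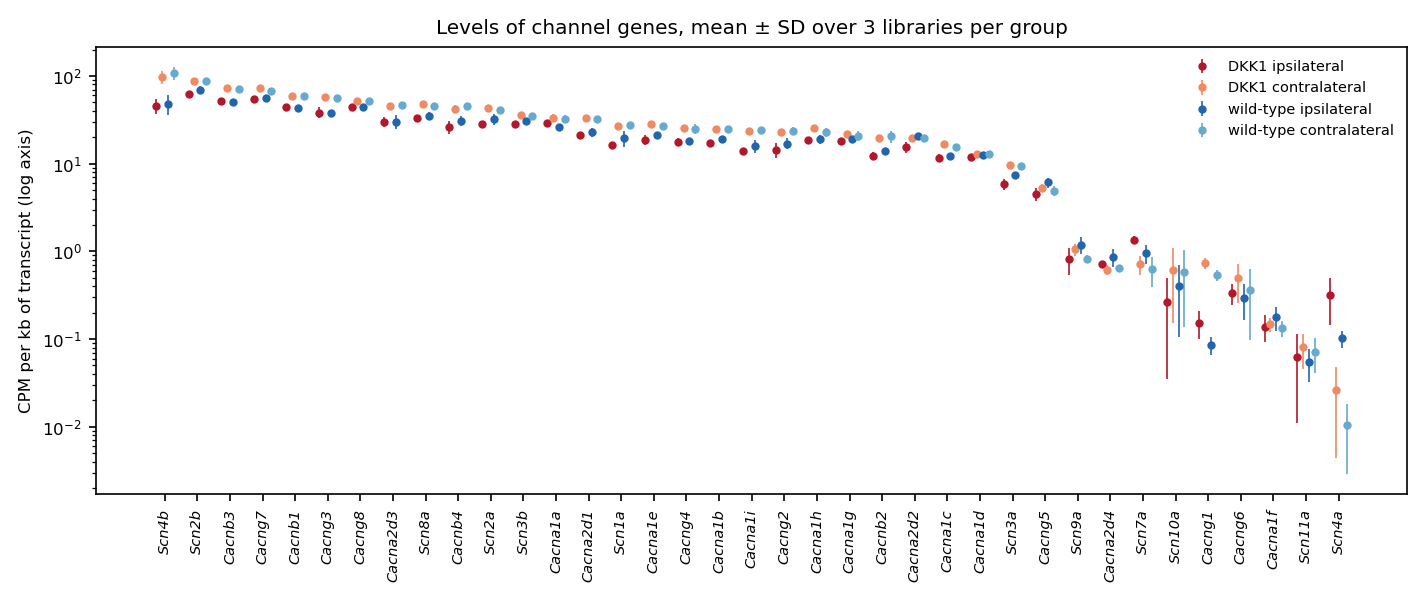
Level of 37 channel genes in CPM per kb of transcript (vertical log axis), as mean ± SD over 3 libraries, in DKK1 ipsilateral, DKK1 contralateral, WT ipsilateral and WT contralateral tissue, ordered by the WT contralateral level. At the low end Scn4a is the gene whose ipsilateral points lie far above the contralateral ones, and Cacng1 the gene whose ipsilateral points lie far below.

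The lesioned hemisphere of DKK1 mice was compared first with their intact hemisphere. Of the 39 channel genes, 28 fell, 2 rose (Scn4a and Scn7a) and 9 were not called. Falls were common among main neuronal subunits: Scn2b, Scn3b and Scn4b of the sodium beta subunits, all 4 calcium channel beta subunits, all 3 T-type pores, 3 of 4 alpha2delta subunits and 5 of 6 TARPs fell, and Scn1a, Scn2a, Scn3a and Scn8a among sodium alpha subunits. Most falls were moderate: their median was -0.56 log2 (-32.1%), 26 of the 28 lay between -0.22 and -1, and only Scn4b and Cacng1 were steeper. Genes were called at an adjusted p under 0.05 (edgeR's quasi-likelihood test, two-sided, Benjamini-Hochberg over all genes tested). Of all genes tested, 50.1% were called in this comparison, 22.6% lower and 27.5% higher, against 71.8% of the channel genes lower. The median change of the 39 was -0.51 log2, and that of all genes tested 0.01. The libraries of the hemispheres did not overlap for 30 genes that were lower and 2 that were higher (82.1%), against 59.9% of all genes tested (27.8% lower and 32.1% higher).

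In WT mice, 24 channel genes fell in the lesioned hemisphere, 1 rose (Scn4a) and 14 were not called. The falls had a median of -0.45 log2 (-26.9%) and ranged from -0.22 (Cacng8) to -2.58 (Cacng1). Of all genes tested, 37.2% were called here, 15.9% lower and 21.2% higher, against 61.5% of the channel genes lower. The median change of the 39 was -0.35 log2, and that of all genes tested 0.01. Libraries did not overlap for 24 genes that were lower and 3 that were higher (69.2%), against 50.3% of all genes tested (23.8% lower and 26.5% higher). Fewer cells of a type and less RNA per cell cannot be told apart in such bulk tissue.

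The calls had 23 falls in common. Cacna1h, Scn3b, Cacna2d2 and Cacna1g were among those called lower in DKK1 mice and not in WT mice, and Cacna1a was called lower in WT mice and not in DKK1 mice; the difference between the genotypes did not pass its own test for any of them in the model without a block, as given below. With the replicate number as a block, 32 genes were called lower and 2 higher in DKK1 mice, with Cacna1a, Cacna1d, Cacng5 and Scn10a added as lower (background 56.2% in either direction), and in WT mice 25 lower and 2 higher, with Scn3b lower and Cacng5 higher added (background 45.3% in either direction). Some of these differences in calls rested on the setting. Cacna1a was called lower in DKK1 mice as well by DESeq2 (adjusted p = 0.0303), with DESeq2's size factors (0.04698), with upper-quartile scaling (0.0231), with no filter (0.0308), with the block (0.0120) and without DKK1 contralateral 3 (0.0206). Cacna1h was called lower in WT mice as well by DESeq2 (0.0351), with upper-quartile scaling (0.0489) and without WT ipsilateral 1 (0.0184) or WT contralateral 1 (0.0179), and Scn3b by DESeq2 (0.0414), with the block (0.0221) and without WT contralateral 1 (0.02200). Without DKK1 ipsilateral 1, Cacng5 was called lower in DKK1 mice (0.0435), and without WT ipsilateral 2, Cacna2d4 was called higher in WT mice (0.0305). The DKK1 call of Cacna1g was lost without DKK1 ipsilateral 2 (adjusted p = 0.0856), DKK1 ipsilateral 3 (0.0646) or DKK1 contralateral 1 (0.0757) and on the deposited TPM values with a pseudocount of 1 or 0.1 (limma, 0.0562 and 0.0559), and that of Cacna2d2 without DKK1 ipsilateral 2 (0.0529). The WT call of Cacng2 was lost without WT ipsilateral 1 (0.0644) or WT contralateral 2 (0.0511).

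**Figure D2:**
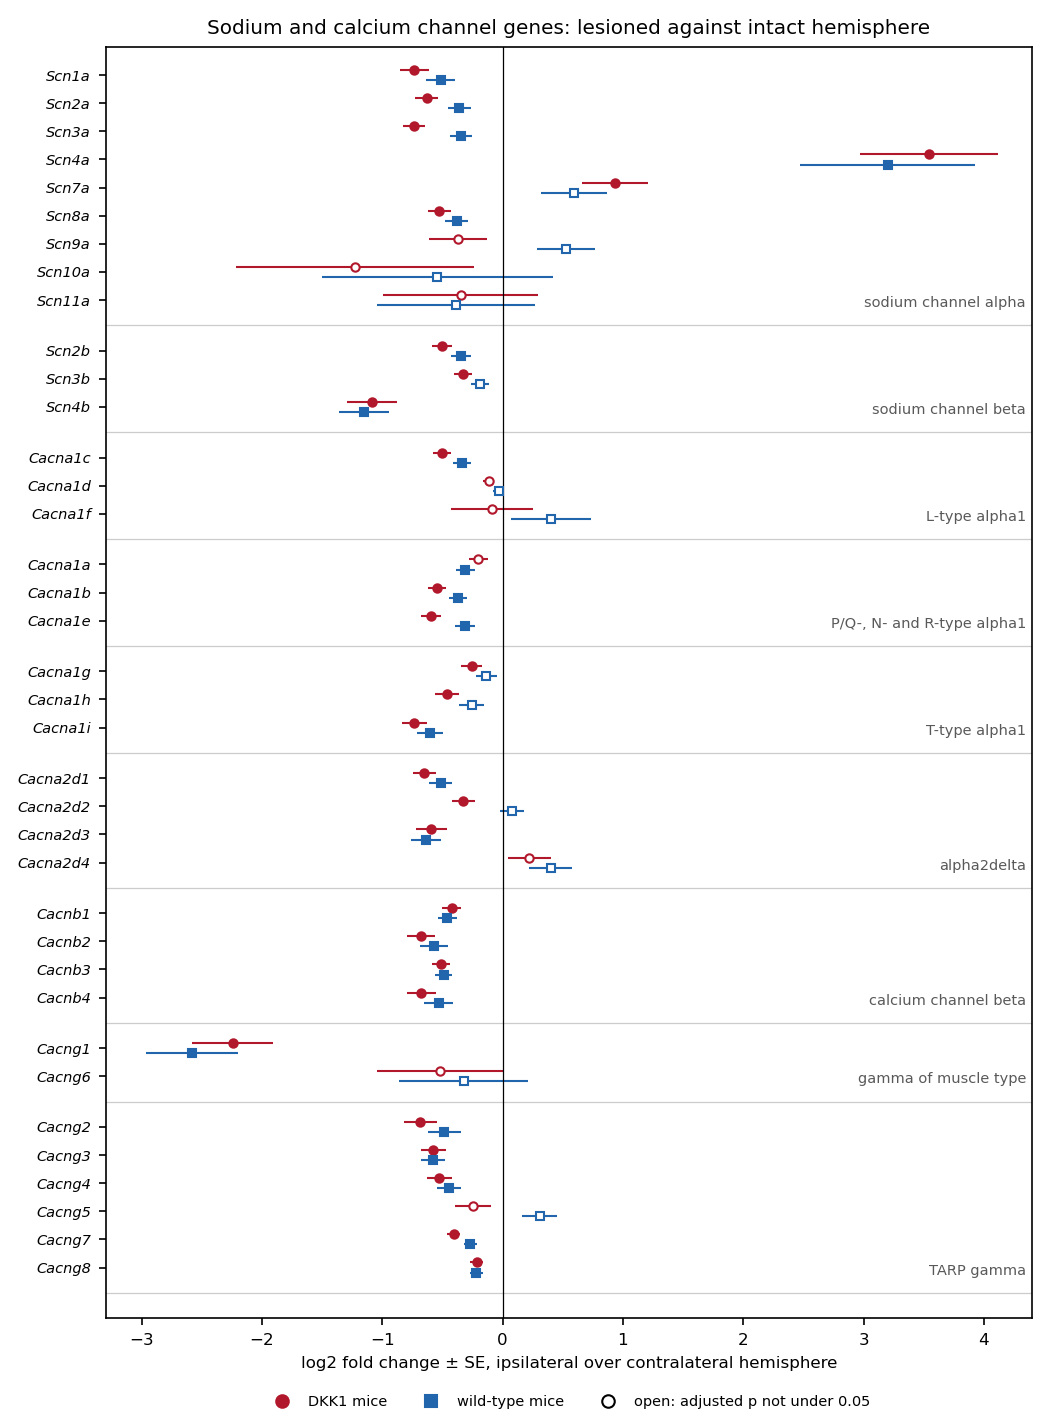
Log2 fold change ± SE of 37 channel genes (rows, by subfamily) in the ipsilateral over the contralateral hemisphere of DKK1 mice (red circles) and WT mice (blue squares), 3 libraries per group; filled symbols passed an adjusted p of 0.05. Most filled symbols lie between -0.22 and -1, with Cacng1 and Scn4b further left and Scn4a far right in both genotypes.

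Among the alpha subunits of brain neurons, Scn3a, which encodes Nav1.3 and is most abundant in the embryonic brain, had the smallest p of any channel gene that fell in DKK1 mice. Its levels were 66.4, 53.6 and 49.8 CPM in DKK1 ipsilateral, 94.1, 96.3 and 92.2 CPM in DKK1 contralateral, 66.0, 76.8 and 73.2 CPM in WT ipsilateral and 88.5, 93.6 and 93.0 CPM in WT contralateral libraries. All ipsilateral libraries of each genotype lay below all contralateral ones, with the lowest in DKK1 lesions. The change was -0.73 ± 0.09 log2 in DKK1 mice (adjusted p = 6.03e-05) and -0.35 ± 0.09 in WT mice (0.0113). Scn1a fell by 0.74 and 0.52 log2 in DKK1 and WT mice, Scn2a by 0.63 and 0.36, and Scn8a by 0.53 and 0.38, each called in both genotypes. Scn9a, known from peripheral sensory neurons, was called in neither: its change was -0.37 ± 0.24 log2 in DKK1 mice (adjusted p = 0.223) and 0.52 ± 0.24 in WT mice (0.108).

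The alpha subunits of other tissues did not all move with these. Scn4a was nearly absent from intact tissue. It had 27, 46 and 90 counts in DKK1 ipsilateral, 3, 8 and 1 in DKK1 contralateral, 15, 21 and 16 in WT ipsilateral and 1, 1 and 3 in WT contralateral libraries, which is 1.06, 1.90 and 3.35 CPM in DKK1 ipsilateral, 0.147, 0.328 and 0.0436 CPM in DKK1 contralateral, 0.561, 0.832 and 0.609 CPM in WT ipsilateral and 0.0375, 0.0428 and 0.127 CPM in WT contralateral libraries. Every ipsilateral library lay above every contralateral one, but even the highest stood near the low end of the family per kb. Scn4a reached the filter's minimum count of 10 in ipsilateral libraries only, so the filter kept it through the groups where it was high. The change was 3.54 ± 0.58 log2 in DKK1 mice (adjusted p = 0.000397) and 3.20 ± 0.73 in WT mice (0.00577). The WT call was lost on the deposited TPM values with a pseudocount of 1 (limma, adjusted p = 0.217).

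Skeletal muscle markers are given beside Scn4a because muscle is its best-known site. Of 9 listed genes (Ckm, Acta1, myosins, Ttn and others) 8 were tested; in DKK1 mice Mylpf rose by 1.43 log2, Ttn fell by 0.39 and 6 were not called, and in WT mice 0 of 8 were called. Their summed level was 20.9 to 24.8 CPM in DKK1 ipsilateral, 22.3 to 30.6 in DKK1 contralateral, 17.3 to 19.6 in WT ipsilateral and 21.2 to 22.7 in WT contralateral libraries, so that the sum was not higher in the lesioned hemisphere. The largest part of this sum was Acta1, with means of 7.63 CPM in DKK1 ipsilateral and 10.2 in DKK1 contralateral tissue. Mylpf, which rose, added little to it, with means of 1.21 and 0.449 CPM there. The muscle calcium channel gene Cacna1s, which the rule does not take, changed by 0.46 ± 0.28 log2 in DKK1 mice and 0.61 ± 0.28 in WT mice and was not called. The part of muscle in the Scn4a result was not tested.

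Scn7a had 9.44, 9.32 and 11.1 CPM in DKK1 ipsilateral, 4.41, 6.68 and 4.49 CPM in DKK1 contralateral, 8.90, 6.22 and 5.63 CPM in WT ipsilateral and 5.33, 2.65 and 5.74 CPM in WT contralateral libraries. The DKK1 libraries of the hemispheres did not overlap, and the WT libraries did. The change was 0.94 ± 0.27 log2 in DKK1 mice (adjusted p = 0.0139) and 0.59 ± 0.28 in WT mice (0.113); the DKK1 call was lost without DKK1 ipsilateral 3, DKK1 contralateral 1 or DKK1 contralateral 3 (adjusted p = 0.0502, 0.0584 and 0.0602). Of 5 markers of peripheral sensory neurons and Schwann cells 2 rose in each genotype, with a summed level of 80.0 to 102 CPM in DKK1 ipsilateral, 27.8 to 39.3 in DKK1 contralateral, 55.5 to 96.6 in WT ipsilateral and 29.0 to 38.5 in WT contralateral libraries. Most of this sum was 1 gene, Pmp22, with 72.4, 88.8 and 78.3 CPM in DKK1 ipsilateral libraries. Prph and Calca of the same list stood at or below 1.80 CPM in every library. The part of these cells in the Scn7a result was not tested.

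Scn10a and Scn11a differed widely between libraries of a group. Scn10a ranged from 0.196 to 3.14 CPM in DKK1 ipsilateral, 0.931 to 6.85 in DKK1 contralateral, 0.523 to 4.24 in WT ipsilateral and 0.713 to 6.42 in WT contralateral libraries. Library number 1 was the lowest of Scn10a in all 4 groups, and the gene was called in neither genotype unless the replicate number was a block (DKK1 mice, adjusted p = 0.0023). Scn11a had 1 to 16 counts per library and was not called.

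**Figure D3:**
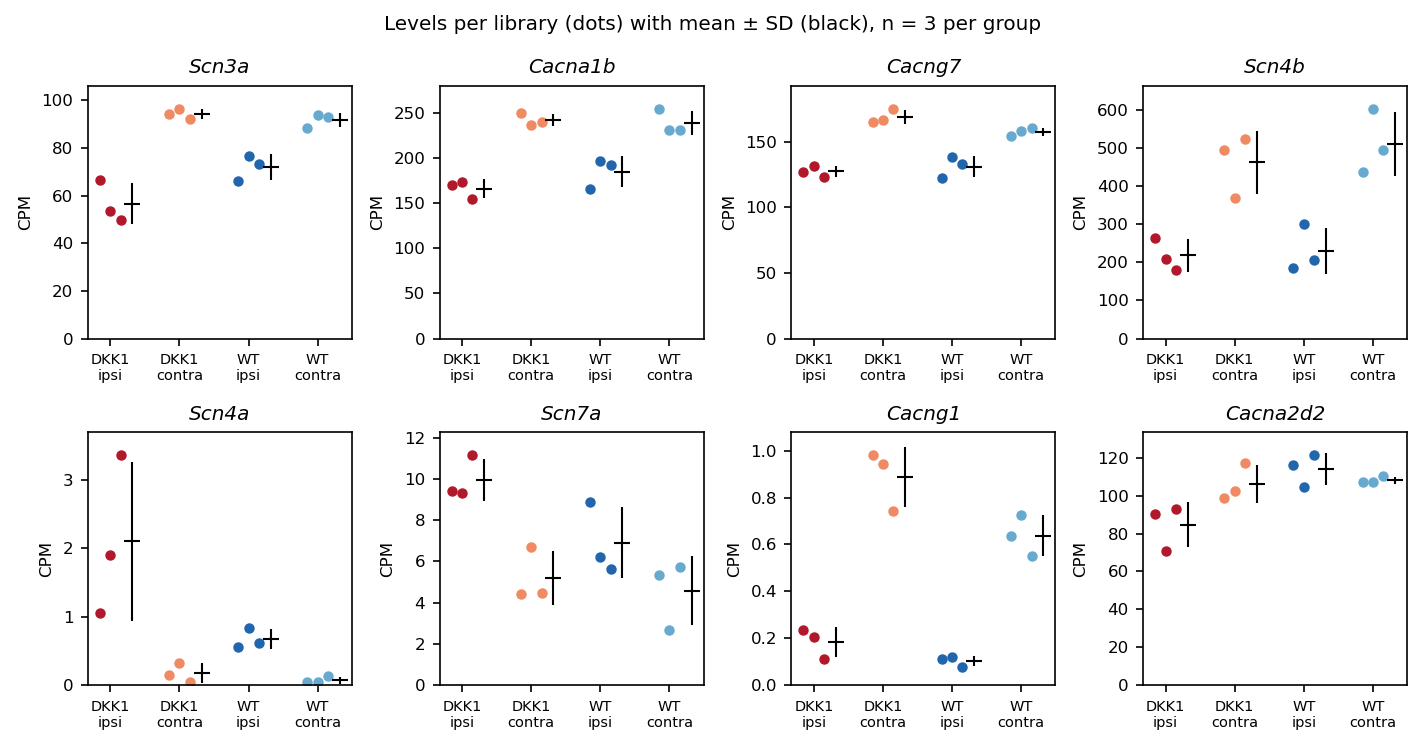
CPM of 8 channel genes in each library (dots) with mean ± SD over 3 libraries (black), in DKK1 ipsilateral, DKK1 contralateral, WT ipsilateral and WT contralateral tissue; each panel has its own linear axis from 0. Scn3a, Cacna1b, Cacng7, Scn4b and Cacng1 are lower in all ipsilateral than in all contralateral libraries, Scn4a is higher in all of them, Scn7a is separated in DKK1 mice, and Cacna2d2 is low in DKK1 ipsilateral libraries alone.

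Sodium beta subunits bind alpha subunits at the cell surface. Scn2b, Scn3b and Scn4b fell in DKK1 mice, and Scn2b and Scn4b in WT mice, with the largest change in Scn4b, which is abundant in striatal neurons. It had 264, 210 and 180 CPM in DKK1 ipsilateral, 495, 369 and 525 CPM in DKK1 contralateral, 185, 300 and 206 CPM in WT ipsilateral and 436, 602 and 494 CPM in WT contralateral libraries, and every ipsilateral library lay below every contralateral one. The change was -1.09 ± 0.21 log2 in DKK1 mice (adjusted p = 0.00118) and -1.15 ± 0.21 in WT mice (0.00165). Markers of striatal medium spiny neurons moved with it: 6 of 6 (Drd1, Drd2 and others) fell in both genotypes, with medians of -1.11 log2 in DKK1 mice and -1.12 in WT mice, and summed levels of 565 to 822 CPM in DKK1 ipsilateral, 1187 to 1575 in DKK1 contralateral, 607 to 904 in WT ipsilateral and 1179 to 1745 in WT contralateral libraries. Their part in the Scn4b result was not tested.

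Scn2b fell by 0.50 log2 in DKK1 mice and 0.34 in WT mice. Scn3b fell by 0.33 in DKK1 mice, and its change of -0.19 ± 0.08 log2 in WT mice was not called (adjusted p = 0.0698).

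Among high-voltage-activated calcium pores, Cacna1b and Cacna1e showed the smallest p in DKK1 mice. Cacna1b, which encodes the N-type channel of nerve terminals, had 170, 173 and 154 CPM in DKK1 ipsilateral, 249.3, 236 and 240 CPM in DKK1 contralateral, 165, 196 and 193 CPM in WT ipsilateral and 254.3, 231 and 231 CPM in WT contralateral libraries. Both lesioned groups lay below both intact groups, with a change of -0.54 ± 0.07 log2 in DKK1 mice (adjusted p = 9.89e-05) and -0.37 ± 0.07 in WT mice (0.00252). Cacna1e, which encodes the R-type channel, had 252.3, 252.9 and 200 CPM in DKK1 ipsilateral, 387, 334 and 344 CPM in DKK1 contralateral, 275, 274 and 266 CPM in WT ipsilateral and 346, 328 and 338 CPM in WT contralateral libraries, again without overlap between hemispheres. Its change was -0.59 ± 0.09 log2 in DKK1 mice (adjusted p = 0.000166) and -0.31 ± 0.09 in WT mice (0.0138).

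Cacna1a, of the P/Q-type channel, differed less: its change was -0.20 ± 0.08 log2 in DKK1 mice (adjusted p = 0.054) and -0.31 ± 0.08 in WT mice (0.011), although in both genotypes the hemispheres did not overlap. The L-type genes divided. Cacna1c, the main L-type pore of brain and heart, changed by -0.50 ± 0.08 log2 in DKK1 mice (adjusted p = 0.000218) and -0.34 ± 0.07 in WT mice (0.00507). Cacna1d, the other L-type pore of brain, had 108, 114 and 104 CPM in DKK1 ipsilateral, 120, 118 and 115 CPM in DKK1 contralateral, 117, 111 and 113 CPM in WT ipsilateral and 118, 117 and 114 CPM in WT contralateral libraries. It changed by -0.12 ± 0.05 log2 in DKK1 mice (adjusted p = 0.0517) and -0.03 ± 0.05 in WT mice (0.605). It was thus called in neither genotype, but was called lower in DKK1 mice by DESeq2 (adjusted p = 0.0195), with DESeq2's size factors (0.0349), with upper-quartile scaling (0.00967), with no filter (0.0234), with the block (0.0392) and without DKK1 ipsilateral 2 (0.0242), DKK1 contralateral 2 (0.0437) or DKK1 contralateral 3 (0.0243). Cacna1f was at or below 1.33 CPM in every library and was not called.

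Of the T-type pores, Cacna1i had the smallest p. It had 144, 141 and 124 CPM in DKK1 ipsilateral, 237, 213 and 231 CPM in DKK1 contralateral, 130, 183 and 156 CPM in WT ipsilateral and 232, 254.1 and 227 CPM in WT contralateral libraries, with all ipsilateral libraries below all contralateral ones, and changed by -0.73 ± 0.11 log2 in DKK1 mice (adjusted p = 0.00019) and -0.60 ± 0.11 in WT mice (0.00138). By edgeR's main model, with or without the block, Cacna1h and Cacna1g were called in DKK1 mice and not in WT mice. Some alternatives called Cacna1h in WT mice as well, as given above. Cacna1h changed by -0.46 ± 0.10 log2 in DKK1 mice (adjusted p = 0.00277) and -0.26 ± 0.10 in WT mice (0.0659). Cacna1g changed by -0.26 ± 0.09 log2 in DKK1 mice (adjusted p = 0.0267) and -0.13 ± 0.09 in WT mice (0.243). Cacna1h lies on chromosome 17 at 25374287 to 25433783 (mm10).

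The auxiliary beta subunits, which bring the pores to the membrane, fell together. Cacnb3 was among the 5 smallest p in both genotypes, with 154, 146 and 132 CPM in DKK1 ipsilateral, 223, 191 and 202 CPM in DKK1 contralateral, 133, 151 and 145 CPM in WT ipsilateral and 205, 199 and 198 CPM in WT contralateral libraries, and no overlap between hemispheres. It changed by -0.51 ± 0.07 log2 in DKK1 mice (adjusted p = 0.000158) and -0.49 ± 0.07 in WT mice (0.00046). Cacnb1, Cacnb2 and Cacnb4 fell by 0.42, 0.68 and 0.67 log2 in DKK1 mice and by 0.46, 0.57 and 0.53 in WT mice, all called. The alpha2delta genes were mixed. Cacna2d1, whose product binds gabapentin, fell by 0.65 log2 in DKK1 mice and 0.52 in WT mice, and Cacna2d3 fell by 0.59 and 0.64. Cacna2d2, which gabapentin also binds, is given with the genotypes below, and Cacna2d4 changed by 0.22 ± 0.18 and 0.40 ± 0.18 log2 in DKK1 and WT mice without a call.

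Among TARPs, Cacng7 had the second-smallest p in DKK1 mice. It had 127, 132 and 123 CPM in DKK1 ipsilateral, 165, 166 and 175 CPM in DKK1 contralateral, 122, 138 and 133 CPM in WT ipsilateral and 155, 158 and 160 CPM in WT contralateral libraries, with no overlap between hemispheres. Its change was -0.41 ± 0.05 log2 in DKK1 mice (adjusted p = 7.43e-05) and -0.27 ± 0.05 in WT mice (0.00244). Cacng3, a TARP of cortex, had 67.8, 54.8 and 52.0 CPM in DKK1 ipsilateral, 92.6, 78.6 and 88.9 CPM in DKK1 contralateral, 53.0, 62.4 and 56.1 CPM in WT ipsilateral and 84.4, 90.7 and 81.0 CPM in WT contralateral libraries and changed by -0.57 ± 0.10 log2 in DKK1 mice (adjusted p = 0.000692) and -0.58 ± 0.10 in WT mice (0.0013). Cacng2, which encodes stargazin, fell by 0.68 log2 in DKK1 mice and 0.48 in WT mice, Cacng4 by 0.52 and 0.44, and Cacng8 by 0.22 in each.

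Cacng1 showed the largest fall of all 39 genes but at a low level. It reached the filter's minimum count of 10 in contralateral libraries only, so the filter kept it through the groups where it was high. It had 6, 5 and 3 counts in DKK1 ipsilateral, 20, 23 and 17 in DKK1 contralateral, 3, 3 and 2 in WT ipsilateral and 17, 17 and 13 in WT contralateral libraries. The hemispheres did not overlap in either genotype, and the change was -2.24 ± 0.34 log2 in DKK1 mice (adjusted p = 0.000234) and -2.58 ± 0.38 in WT mice (0.000439). Cacng6, with 7 to 27 counts per library, was not called.

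Neuron markers were measured beside these falls. In DKK1 mice 10 of 10 fell (median -0.40 log2) and in WT mice 9 of 10 (median -0.32), and their summed level was 3957 to 4404 CPM in DKK1 ipsilateral, 5266 to 5793 in DKK1 contralateral, 3739 to 4640 in WT ipsilateral and 5334 to 5514 in WT contralateral libraries. The channel genes summed to 4034, 4373 and 4676 CPM in DKK1 ipsilateral, 5936, 6386 and 6611 in DKK1 contralateral, 4309, 4705 and 5032 in WT ipsilateral and 6084, 6222 and 6445 in WT contralateral libraries. Both sums were lower in every lesioned than in every intact library. The change of 25 of the 39 channel genes in DKK1 mice and 23 in WT mice lay below the median of the neuron markers, and 23 and 25 lay within 0.25 log2 of it. Macrophage markers went the other way: 6 of 6 rose in both genotypes, with summed levels of 1107 to 1439 CPM in DKK1 ipsilateral, 29.7 to 39.6 in DKK1 contralateral, 687 to 1168 in WT ipsilateral and 28.6 to 143 in WT contralateral libraries. WT contralateral 1 stood apart from the other intact WT libraries. It had 65.3 CPM of Lyz2 and 29.0 of Gpnmb. WT contralateral 2 had 8.25 and 2.69 CPM, and WT contralateral 3 had 10.7 and 4.05. Of 6 microglia markers, 6 rose in DKK1 mice and 5 in WT mice. Of 6 oligodendrocyte markers, 5 rose in each genotype, and 0 of either list fell. The part of cell makeup in the falls was not tested.

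**Figure D4:**
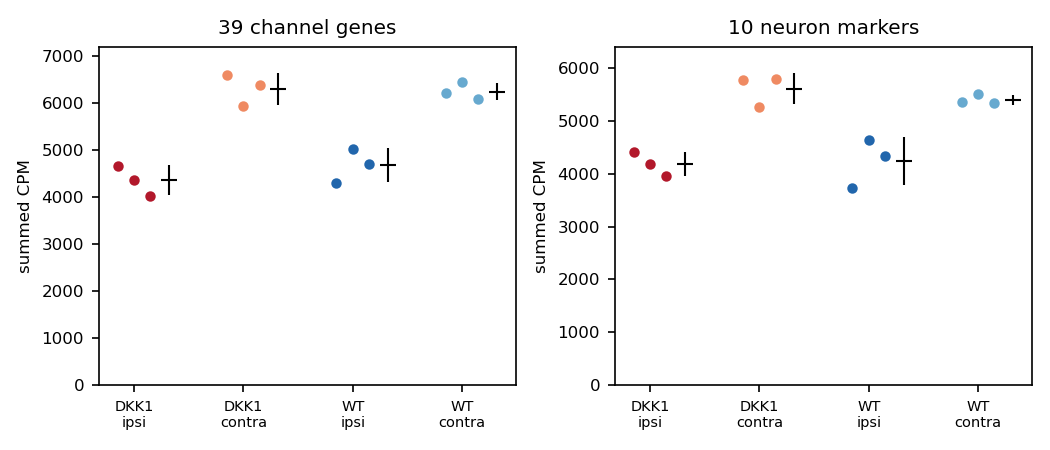
Summed CPM of the 39 channel genes (left) and of 10 neuron markers (right) in each library (dots) with mean ± SD over 3 libraries (black); both axes start at 0. Both sums are lower in all 6 ipsilateral than in all 6 contralateral libraries, and WT ipsilateral 1 is the lowest WT library in both panels.

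Proteins that hold or tune these channels were examined as lists of partners. Beside the counts of all these lists, 22.6% of all genes tested were called lower and 27.5% higher in DKK1 mice. In WT mice the shares were 15.9% lower and 21.2% higher. Of 12 genes of the axon initial segment and node, 8 fell in DKK1 mice and 5 in WT mice, and 0 rose. Ank3, which encodes the ankyrin-G that anchors sodium channels, changed by -0.56 ± 0.08 log2 in DKK1 mice (adjusted p = 0.000137) and -0.27 ± 0.08 in WT mice (0.0179). Cntn1, an axonal adhesion protein, changed by -0.44 ± 0.07 log2 in DKK1 mice (adjusted p = 0.000345) and -0.23 ± 0.07 in WT mice (0.0236), and Sptbn4, the spectrin of the initial segment, by -0.47 ± 0.08 log2 in DKK1 mice (adjusted p = 0.000611) and -0.44 ± 0.08 in WT mice (0.00178). Nfasc and Cntn2 were called in neither genotype. All 4 fibroblast growth factor homologous factors, which bind the tails of sodium channels, fell in both genotypes: Fgf13 changed by -0.55 ± 0.08 log2 in DKK1 mice (adjusted p = 0.000281) and -0.44 ± 0.08 in WT mice (0.0021), Fgf12 by -0.60 ± 0.09 log2 in DKK1 mice (adjusted p = 0.000296) and -0.39 ± 0.09 in WT mice (0.00786) and Fgf11 by -0.44 ± 0.07 log2 in DKK1 mice (adjusted p = 0.000332) and -0.28 ± 0.07 in WT mice (0.0079).

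The sodium leak channel complex fell as well, with 4 of 4 tested genes in DKK1 mice and 3 of 4 in WT mice. Unc80, a large subunit of the complex, had 254.7, 245 and 230 CPM in DKK1 ipsilateral, 381, 363 and 372 CPM in DKK1 contralateral, 261, 315 and 289 CPM in WT ipsilateral and 385, 370 and 373 CPM in WT contralateral libraries and changed by -0.61 ± 0.07 log2 in DKK1 mice (adjusted p = 2.27e-05) and -0.38 ± 0.07 in WT mice (0.00122). The pore gene Nalcn changed by -0.54 ± 0.08 log2 in DKK1 mice (adjusted p = 0.000273) and -0.22 ± 0.08 in WT mice (0.0584), and Fam155a, an auxiliary subunit of it, by -0.49 ± 0.08 log2 in DKK1 mice (adjusted p = 0.000344) and -0.25 ± 0.08 in WT mice (0.0284). Of 10 AMPA receptor genes and their auxiliary subunits, 9 fell in DKK1 mice and 8 in WT mice. Gsg1l, an auxiliary subunit, changed by -0.89 ± 0.14 log2 in DKK1 mice (adjusted p = 0.000293) and -0.93 ± 0.14 in WT mice (0.000468), Shisa9, another, by -0.55 ± 0.09 log2 in DKK1 mice (adjusted p = 0.000374) and -0.39 ± 0.09 in WT mice (0.00567) and the receptor subunit gene Gria3 by -0.55 ± 0.09 log2 in DKK1 mice (adjusted p = 0.000514) and -0.47 ± 0.09 in WT mice (0.00262).

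Regulators of calcium channels divided. Of 15, 10 fell and 3 rose in DKK1 mice, and 10 fell and 4 rose in WT mice. The genes that rose in both include 3 of the RGK small GTPases, which inhibit calcium channels: Rrad had 6.66, 5.61 and 8.09 CPM in DKK1 ipsilateral, 2.01, 2.13 and 2.18 CPM in DKK1 contralateral, 7.44, 4.87 and 6.20 CPM in WT ipsilateral and 3.19, 2.05 and 2.87 CPM in WT contralateral libraries and changed by 1.68 ± 0.22 log2 in DKK1 mice (adjusted p = 7.65e-05) and 1.19 ± 0.21 in WT mice (0.00142), while Gem rose by 1.04 and 1.48 log2 and Rem1 by 0.97 and 1.15 in DKK1 and WT mice. The fourth RGK gene, Rem2, fell by 0.86 and 0.89. Rims2 and Rimbp2, which tether channels at release sites, changed by -0.65 ± 0.09 log2 in DKK1 mice (adjusted p = 0.000102) and -0.35 ± 0.09 in WT mice (0.00869) and by -0.52 ± 0.08 log2 in DKK1 mice (adjusted p = 0.000332) and -0.36 ± 0.08 in WT mice (0.00588). Of 6 intracellular calcium release channels, 2 rose and 4 fell in both genotypes. Itpr3, an inositol trisphosphate receptor, had 37.2, 38.8 and 42.3 CPM in DKK1 ipsilateral, 12.6, 11.4 and 9.77 CPM in DKK1 contralateral, 28.0, 21.4 and 21.6 CPM in WT ipsilateral and 13.5, 11.0 and 12.2 CPM in WT contralateral libraries and changed by 1.81 ± 0.13 log2 in DKK1 mice (adjusted p = 2.04e-06) and 0.95 ± 0.13 in WT mice (0.000236). The related Itpr2 changed by 0.94 ± 0.07 log2 in DKK1 mice (adjusted p = 2.55e-06) and 0.73 ± 0.07 in WT mice (3.98e-05), and the ryanodine receptor Ryr2 by -0.46 ± 0.07 log2 in DKK1 mice (adjusted p = 0.000406) and -0.24 ± 0.07 in WT mice (0.0271).

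Next came DKK1 lesions against WT lesions. Only Cacna2d2, which encodes an alpha2delta subunit, was called, lower in DKK1 mice, against 2.37% of all genes tested (0.846% lower and 1.52% higher). It had 90.6, 71.0 and 92.8 CPM in DKK1 ipsilateral, 98.6, 103 and 117 CPM in DKK1 contralateral, 117, 105 and 121 CPM in WT ipsilateral and 107, 107 and 110 CPM in WT contralateral libraries. The DKK1 ipsilateral libraries lay below all others, while the DKK1 contralateral and both WT groups overlapped. The difference between DKK1 and WT lesions was -0.43 ± 0.10 log2 (SE, edgeR, adjusted p = 0.0465). It was lost in a fit of these 2 groups only (adjusted p = 0.208) and without DKK1 ipsilateral 2 (0.143), DKK1 ipsilateral 3 (0.0738), WT ipsilateral 2 (0.0751) or WT ipsilateral 3 (0.2).

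Before adjustment 7 of the 39 genes had p under 0.05. Those next to Cacna2d2 were Scn3a at -0.35 ± 0.09 log2 (adjusted p = 0.0732) and Scn4a at 1.65 ± 0.47 (0.0878). Libraries did not overlap for 4 genes that were higher and 3 that were lower (17.9%), against 20.6% of all genes tested (13.3% higher and 7.26% lower). The count of calls rested on single libraries. Without WT ipsilateral 1, 6 channel genes were lower and 0 higher in DKK1 lesions (Cacna2d2, Scn1a, Scn3a, Scn2a, Cacna1i and Cacna1b; background 14.3% in either direction), and without DKK1 ipsilateral 1, Cacng5 and Scn3a were lower and Scn4a higher beside Cacna2d2 (background 6.01% in either direction). DESeq2 called 3, with Scn3a among those added (background 6.5%). Neuron markers had 0 of 10 called in this comparison. Of the 6 calcium release channels, 1 was called in the main model, higher in DKK1 lesions (background 1.52% higher). The largest change of that list was 0.74 log2, upward. All DKK1 ipsilateral libraries of Itpr3 lay above all WT ipsilateral ones, as printed above.

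In the intact hemispheres 0 of the 39 channel genes were called between DKK1 and WT mice, against 0.88% of all genes tested (0.369% higher and 0.511% lower). None had an unadjusted p under 0.05, and no alternative, DESeq2 included, called any. Libraries did not overlap for 2 genes, Cacng7 and Cacng1 (5.13%, against 11.9% of all genes tested, 5.84% higher and 6.07% lower), both higher in DKK1 mice. The smallest p were those of Cacng7 with 0.10 ± 0.05 log2 (adjusted p = 0.939), Cacna1h with 0.17 ± 0.10 (0.989) and Cacng1 with 0.47 ± 0.29 (0.996). Cacna1h had 166, 151 and 139 CPM in DKK1 ipsilateral, 205, 208 and 214 CPM in DKK1 contralateral, 177, 143 and 146 CPM in WT ipsilateral and 162, 206 and 190 CPM in WT contralateral libraries.

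Whether the hemisphere difference itself depended on genotype was tested as an interaction. By edgeR 0 of the 39 genes passed (background 0.00568%), with 6 at an unadjusted p under 0.05, and 0 passed by DESeq2 or limma-voom. The smallest p were those of Scn3a at -0.39 ± 0.13 log2 (adjusted p = 0.437), Cacna2d2 at -0.40 ± 0.14 (0.46) and Cacng5 at -0.55 ± 0.21 (0.478), where a negative value means a stronger fall in DKK1 mice. With the replicate number as a block, 2 passed (background 1.64%), Cacng5 among them at -0.56 log2 (adjusted p = 0.0466). Cacng5, an atypical TARP, had 20.2, 14.8 and 15.7 CPM in DKK1 ipsilateral, 21.02, 17.7 and 21.3 CPM in DKK1 contralateral, 25.8, 19.7 and 23.3 CPM in WT ipsilateral and 20.8, 15.7 and 19.1 CPM in WT contralateral libraries. Its DKK1 libraries were lower and its WT libraries higher on the lesioned side in every same-numbered pair, though the groups overlapped.

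Markers of the thalamus are given beside these genes. Of 5 (Prkcd, Tcf7l2, Rora, Lef1 and Ntng1), 1 rose and 2 fell in DKK1 mice, and 3 rose and 1 fell in WT mice, and 0 of 5 passed between lesions or in the interaction. Only Ntng1 changed direction between the genotypes: it fell by 0.65 log2 in DKK1 mice and rose by 0.40 in WT mice. In both genotypes the mean CPM of Prkcd, Tcf7l2 and Lef1 was higher on the lesioned side, and that of Rora lower. The largest change in the list was 1.07 log2 in DKK1 mice and 1.44 in WT mice, both upward. The summed level was 250 to 267 CPM in DKK1 ipsilateral, 214 to 244 in DKK1 contralateral, 242 to 319 in WT ipsilateral and 173 to 231 in WT contralateral libraries. The part of the tissue sampled in the Cacng5 and Cacna2d2 results was not tested.

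**Figure D5:**
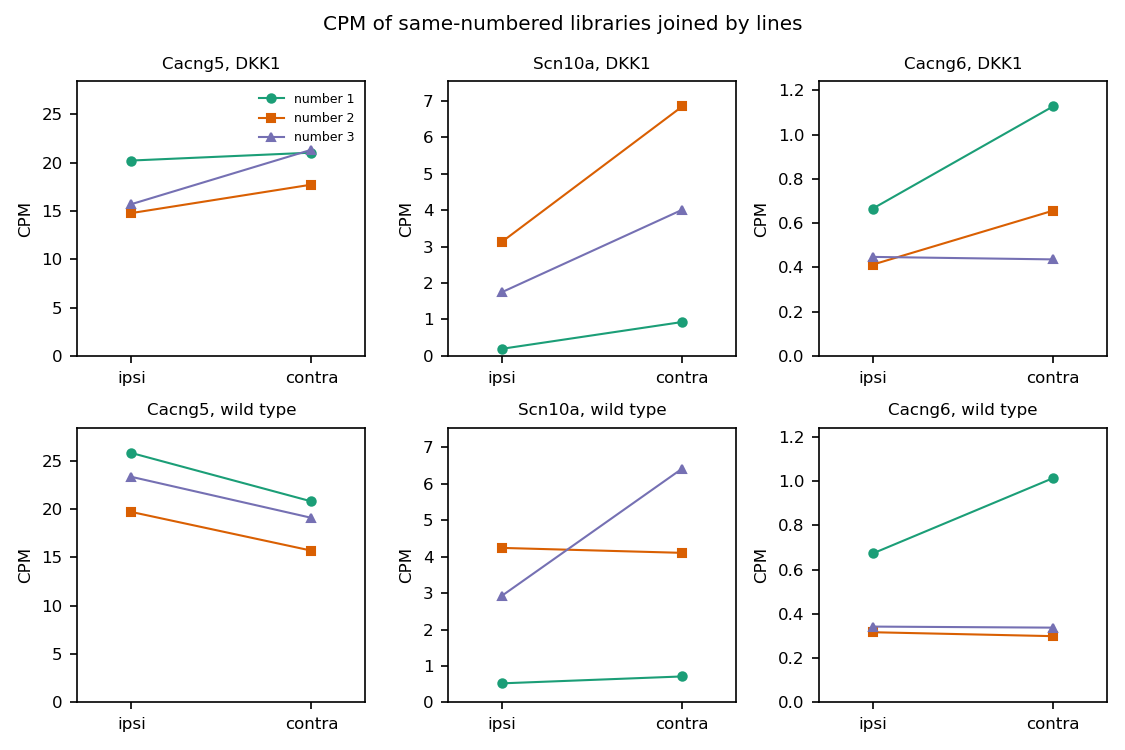
CPM of Cacng5, Scn10a and Cacng6 in DKK1 mice (top) and WT mice (bottom), with lines joining the ipsilateral and contralateral library of the same number. Lines of Cacng5 go up toward the intact side in DKK1 mice and down in WT mice; number 1 is the lowest for Scn10a and the highest for Cacng6 in all 4 groups.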

How the data were processed

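RNA of 12 brain samples was made into directional mRNA libraries, per the labels' protocols. The submitters' processing notes name STAR (2.7.0f), HOMER (4.11), DESeq2 and build mm10; which tool did what, and how strand was used, is not stated there. The authors deposited raw counts for 1 RefSeq transcript per symbol. They also deposited TPM, used for an alternative only, which listed an identical transcript for 24 of the 39 channel genes. Every TPM column carries the word flip in its name, and so does every count column except that of WT ipsilateral 1. What the word means is not explained. For WT ipsilateral 1, the ratio of TPM times length to counts lay between 0.99998 and 1.0003 of its median over 18 channel genes.

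From the counts, edgeR's expression filter (minimum count of 10, by group) kept 17612 of 25124 genes. A robust quasi-likelihood model of all 12 libraries with TMM scaling (edgeR 4.0.16, R 4.3.3) gave every comparison, two-sided. Calls are at a Benjamini-Hochberg adjusted p under 0.05, taken across the tested genes. Where no tool stands beside an adjusted p it comes from edgeR, and ± beside a log2 fold change is its SE. The steps were also run on simulated counts in which few genes were changed. Many more were called between the hemispheres, so that run does not measure the error of those comparisons. The closest libraries differed by a chi-square of 4.07 per degree of freedom, so each was counted as its own sample.

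Group and replicate number of a library were read from its labels. Deviations from group means correlated between same-numbered libraries at 0.276, 0.125 and 0.105 in DKK1 mice and 0.487, 0.310 and 0.297 in WT mice; DKK1 ipsilateral 3 correlated more closely with a contralateral library of another number (0.172). From these data, and from no label, the numbers were taken to pair the hemispheres, and a model with that block is given where it changed a call. The correlations were taken within a genotype, so they cannot tell a shared animal from an effect of the number that runs across genotypes. Whether a number marks 1 animal therefore remains unknown.

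Alternatives were DESeq2 1.42.0, its size factors, upper-quartile scaling, no filter, the block, fits of 2 groups, limma 3.58.1 on voom values and on TPM (pseudocounts 1 and 0.1), and each library left out. Values per library were to be printed for genes called higher, the 5 called lower with the smallest p in each genotype and, between genotypes, those called or the 3 with the smallest p; Scn4b, Cacna1d and 3 partner genes were added after their values were seen. Other members are given by their changes; 2 channel genes stand in the counts over all members and are not reported singly here. Members, markers and partner lists were chosen with earlier results of these data known. Promoters are RefSeq's, and a member's exon overlaps come from a GENCODE annotation of GRCm38.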

Additional observations from a re-analysis of the deposited data

Results flagged for a closer look

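The hemisphere difference of Cacng5 differed between the genotypes when the replicate number was a block. It differed by -0.562 log2 between DKK1 and WT mice (edgeR, adjusted p = 0.0466), with the lesioned side lower in 3 of 3 same-numbered DKK1 pairs and higher in 3 of 3 same-numbered WT pairs. That a number marks 1 animal is not given in the labels. Without the block the adjusted p was 0.478, and 0 of the 39 genes passed. Library number 2 had the lowest level of Cacng5 in all 4 groups. The groups held 3 libraries each, and no group was large enough for a search for single outlying libraries.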

How the results depend on the processing

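Over 56 changes of single channel genes that were called, 500 of 504 values under alternative settings kept direction and call and 4 lost the call, and 319 of 336 values with a library left out kept both and 17 lost the call; none reversed. Falls in DKK1 mice numbered 27 to 32 over the settings and 26 to 29 with a library left out, and falls in WT mice 24 to 26 and 23 to 26. The share of all genes tested that was called, in either direction, moved as well. In DKK1 mice it was 40.2% to 56.2% over the settings and 41.1% to 48.8% with a library left out. In WT mice it was 28.6% to 45.3% and 25.1% to 37.5%. Genes higher in DKK1 mice numbered 1 to 2 with a library left out. Genes higher in WT mice numbered 2 with the replicate block (Cacng5 added), 0 on log2(TPM + 1), where low levels are damped by the pseudocount, and 1 to 2 with a library left out. Calls between the lesions numbered 3 by DESeq2, 0 in the fit of 2 groups and 0 to 6 with a library left out. The share of all genes tested was 6.5%, 0.558% and 0.668% to 14.3% in these fits. In the interaction the replicate block gave 2 calls in place of 0; the pairing by number changed no call other than those printed beside the results. In the intact hemispheres 0 were called under every setting. The cause of these shifts was not tested. Depth limits Scn4a, Scn11a, Cacng1, Cacng6 and Cacna1f, which had 90 or fewer counts per library.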

Other observations

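Some channel genes kept their order by replicate number across groups. The same number was lowest in all 4 groups for 6 of the 39 genes (15.4%, against 9.07% of all genes tested), among them Cacna1a and Cacng1 (number 3), Cacng5 and Scn11a (number 2) and Scn10a (number 1). The same number was highest in all 4 groups for Cacna2d2 (number 3) and Cacng6 (number 1), which is 5.13% of the channel genes against 7.87% of all genes tested. The numbers run across genotypes, so no animal is shared between all 4 groups, and the labels give no batch that goes with them. These genes were noticed after their values were seen.

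Among the partner genes, Itpr3 rose by 1.81 log2 in DKK1 mice and 0.95 in WT mice in the lesioned hemisphere, while Ryr1, Ryr2, Ryr3 and Itpr1 fell in both genotypes. Between the lesions, 1 of the 6 calcium release channels was called, higher in DKK1 mice, and 0 of the 6 passed in the interaction.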
